A study of Mus musculus with 40 samples.

Results

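Amino acid breakdown in mouse skeletal muscle was described through 30 genes, chosen by name as enzymes and regulators of branched-chain amino acid catabolism, transamination and glutamine metabolism. The choice was made with earlier results of these data known. All 30 were found among the 23621 genes of the deposited table, and all 30 passed the filter on low counts in both muscles. Messenger RNA had been sequenced from 40 libraries of C57BL/6 mice in 12 groups. Of the 8 quadriceps groups, with 3 libraries each, 4 came from mice run on a treadmill to exhaustion and 4 from sedentary mice. Runs began at zeitgeber time (ZT) 0 or 12, where ZT 0 is by convention the start of the light phase. The muscle was taken right after the run (+0h, labelled ZT0.5 or ZT12.5) or 3 h later (+3h, labelled ZT3.5 or ZT15.5). Sedentary quadriceps was taken at ZT 0, 4, 12 and 16. The 4 gastrocnemius groups, with 4 libraries each, came from mice given a running wheel by day or only by night, sampled at ZT 4 or ZT 16. Every gastrocnemius group had a wheel, and the night-access group, titled as control, is what day access was set against. The labels state no age, sex, running distance or duration of wheel access. The libraries carry separate tags and were treated as separate mice, and p-values measure the spread between these samples.

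Leucine, isoleucine and valine are unusual among amino acids because muscle, rather than liver, takes the first step of their breakdown. A branched-chain aminotransferase (BCAT) passes the amino group to 2-oxoglutarate, making glutamate and a branched-chain keto acid. The keto acid is then committed to oxidation by the mitochondrial branched-chain keto acid dehydrogenase (BCKDH) complex, which a kinase (Bckdk) switches off by phosphorylation and a phosphatase (Ppm1k) switches on. The glutamate feeds alanine aminotransferase and glutamine synthetase, whose products, alanine and glutamine, carry nitrogen out of muscle.

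Library depth ranged between 27352875 and 79491649 estimated counts in quadriceps and between 45010256 and 70033483 in gastrocnemius. The lowest count of any of 29 genes in any library was 293, whereas Bcat1 had between 5 and 74. The libraries were of skeletal muscle: 8 fibre genes (Acta1, Ckm, Myh4 and others) summed to 132100 to 198200 counts per 1000000 counts (CPM) in quadriceps. In gastrocnemius they summed to 149500 to 177400 CPM, so they do not tell these muscles apart. Liver genes (Alb, Apoa1, Ttr) summed to at most 1.85 CPM in any quadriceps library. Quadriceps libraries differed in other tissue. The 10 slow-fibre genes summed to 107 to 2487 CPM and the 8 adipocyte genes to 230.1 to 2380 CPM, against 577 to 2135 and 153 to 204 CPM in gastrocnemius.

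The upstream sequences of Glul, Gpt2 and Prodh are shown because these 3 genes were higher at ZT 16 than at ZT 4 in gastrocnemius under both wheel schedules; Dbt, higher under both as well, has no entry in the promoter table used. They are the 250 bases before the RefSeq start (GRCm38.p6), read 5′ to 3′ on the gene's strand, with searched motifs in capitals. Glul lies at chr1:153899679-153899928 on the plus strand, Gpt2 at chr8:85492326-85492575 on the plus strand and Prodh at chr16:18089191-18089440 on the minus strand.
Glul: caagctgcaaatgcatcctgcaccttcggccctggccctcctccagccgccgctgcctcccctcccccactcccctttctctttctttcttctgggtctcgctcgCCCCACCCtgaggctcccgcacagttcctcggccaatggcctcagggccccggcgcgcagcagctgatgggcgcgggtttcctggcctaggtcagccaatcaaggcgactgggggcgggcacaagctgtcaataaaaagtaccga
Gpt2: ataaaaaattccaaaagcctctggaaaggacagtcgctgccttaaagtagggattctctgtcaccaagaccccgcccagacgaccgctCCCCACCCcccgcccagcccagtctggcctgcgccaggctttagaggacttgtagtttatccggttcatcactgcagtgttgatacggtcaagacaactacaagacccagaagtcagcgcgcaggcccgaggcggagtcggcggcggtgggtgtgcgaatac
Prodh: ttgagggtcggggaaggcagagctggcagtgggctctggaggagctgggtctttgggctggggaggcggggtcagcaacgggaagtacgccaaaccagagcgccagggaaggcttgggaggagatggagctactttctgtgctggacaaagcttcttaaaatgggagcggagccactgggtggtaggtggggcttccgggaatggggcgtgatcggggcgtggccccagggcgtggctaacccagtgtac

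Promoters of 28 of the 30 genes were matched, giving 33 windows of 300 bases (250 before and 50 after the start); Dbt and Gpt were not among them. Motifs were searched on both strands, and no match overlapped another. The Kruppel-like letters GGGTGGGG (CCCCACCC on the other strand) lay in 6 of the 33 windows (18.2%), against 9.99% of 32851 windows of all genes. In Glul the match began 145 bases before the start, and in Gpt2 162 bases before it. The other 4 were Hsd17b10, Ivd, Mccc1 and Oat. The E-box CACGTG lay in 1 of the 33 windows, that of Mccc2, against 7.15% of all windows. The oestrogen-related receptor motif AAGGTCA lay in that of Got1 (4.72% of all windows). The D-box letters TTATGTAA or TTACGTAA (1.06% of all) and the cyclic AMP response element TGACGTCA (1.79% of all) lay in none. These matches describe letters in a window and not binding.

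The 30 genes differed widely in level. Expressed as CPM per kilobase of exon, the highest in sedentary quadriceps were the mitochondrial aspartate aminotransferase Got2 (176 ± 30.7, SD, n = 12), glutamine synthetase Glul (164.5 ± 96.5) and the cytosolic aspartate aminotransferase Got1 (161 ± 31.5). The spread over sedentary libraries was widest for Glul, and the ranges of these 3 levels overlapped. Taken library by library, however, Got2 exceeded Got1 in every sedentary one, with ratios between 1.03 and 1.16. Ornithine aminotransferase (Oat, 99.0 ± 8.59) and the mitochondrial alanine aminotransferase Gpt2 (89.4 ± 18.5) followed. Within the BCKDH complex, the E1 subunits had unequal levels: Bckdha (E1 alpha) had 88.1 ± 8.19 and Bckdhb (E1 beta) 22.6 ± 2.07 CPM per kilobase. The E2 core Dbt had 10.6 ± 1.33 and the E3 subunit Dld, which other dehydrogenase complexes share, 73.9 ± 7.23. The kinase Bckdk, at 49.8 ± 2.58, exceeded the phosphatase Ppm1k, at 2.83 ± 0.439. Of each isozyme pair, the mitochondrial aminotransferase Bcat2 (32.2 ± 3.18) exceeded the cytosolic Bcat1 (0.0350 ± 0.0123), and Gpt2 exceeded the cytosolic Gpt (13.1 ± 1.97). In gastrocnemius Got2, at 201 on average, and Bcat1, at 0.0271, were again the highest and the lowest. These levels divide by all annotated exons of a gene merged, whether or not expressed, so differences between genes depend on that length.

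**Figure D1:**
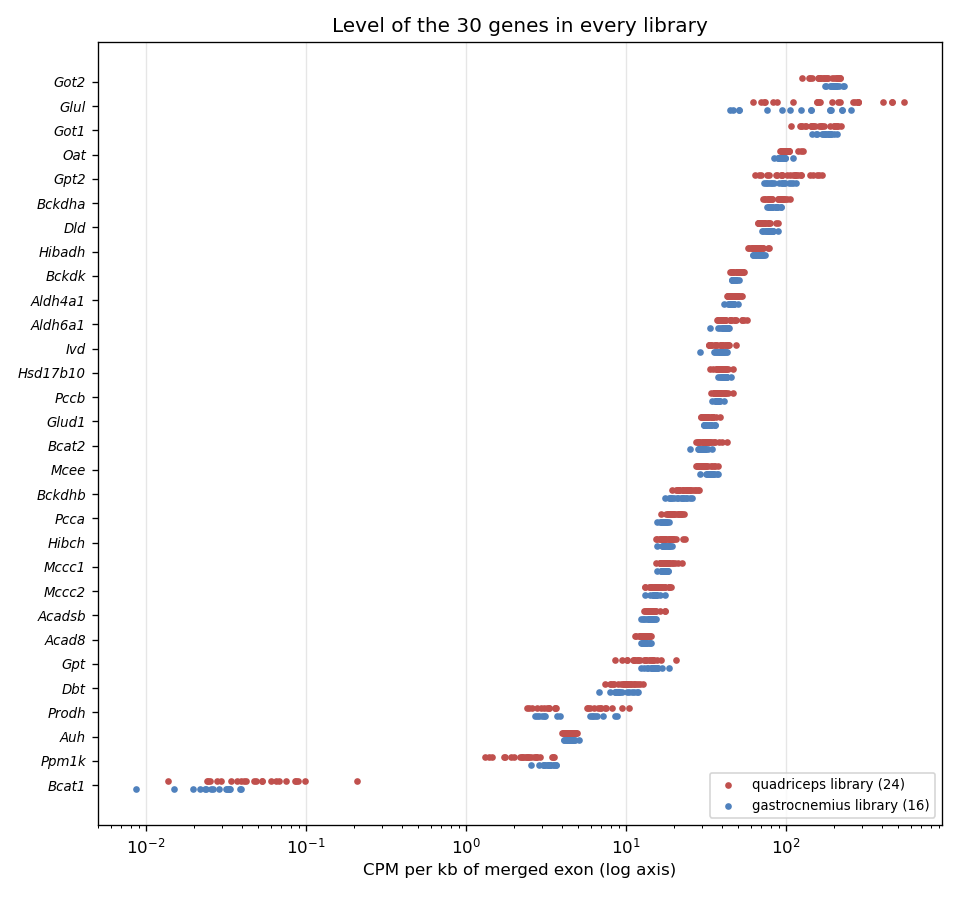
Level of each of the 30 genes in CPM per kilobase of merged exon (log axis), 1 point per library, for 24 quadriceps (red) and 16 gastrocnemius (blue) libraries, ordered by the mean of sedentary quadriceps. Got2, Glul and Got1 stand at the top and Bcat1 at the bottom, and Glul and Prodh spread over a wider range than their neighbours.

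Time of day was examined first in sedentary quadriceps. Glul, which joins ammonia to glutamate to make glutamine, was higher at ZT 12 and ZT 16 than at ZT 0 and ZT 4. So was Prodh, which starts proline breakdown. The mitochondrial alanine aminotransferase Gpt2, the BCKDH subunits Dbt and Dld and the methylmalonate semialdehyde dehydrogenase Aldh6a1, which acts late in valine breakdown, also passed. The calls of Dld and Aldh6a1 were less stable, as given below. Together 6 of the 30 genes (20%) passed the test over the 4 times (edgeR's quasi-likelihood F test, adjusted p under 0.05), where 17.1% of 15097 genes passed, so the share of the list was near that of all genes.

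Glul had 244, 229.8 and 196 CPM at ZT 0 and 173, 202 and 206 CPM at ZT 4. It had 786, 792 and 591 CPM at ZT 12, and 757, 607 and 729 CPM at ZT 16. Every library at ZT 12 or 16 exceeded every library at ZT 0 or 4, and the highest group mean was 3.73 times the lowest (adjusted p = 2.8e-06). In these bulk samples fewer cells of a type and less RNA per cell cannot be told apart. Prodh had 10.2, 9.33 and 7.09 CPM at ZT 0 and 7.96, 8.42 and 6.86 CPM at ZT 4. At ZT 12 it had 21.0, 26.9 and 19.6 CPM, and at ZT 16 it had 21.4, 19.0 and 16.5 CPM. Its groups too were fully separated between early and late times, and the highest group mean was 2.91 times the lowest (adjusted p = 4.6e-05).

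Gpt2 averaged 262 ± 21.2, 284 ± 54.7, 406 ± 33.6 and 349 ± 32.7 CPM at ZT 0, 4, 12 and 16 (SD, n = 3 each), a 1.55-fold range (adjusted p = 0.017). Libraries ran from 234 to 342 CPM at ZT 4 and from 369 to 434 CPM at ZT 12, so the highest ZT 4 library lay below the lowest of ZT 12. Dbt, the E2 core that transfers the acyl group, had 40.1, 34.2 and 34.2 CPM at ZT 0 and 31.9, 26.4 and 29.5 CPM at ZT 4. It had 37.3, 37.1 and 33.3 CPM at ZT 12, and 42.1, 37.9 and 35.3 CPM at ZT 16. The ZT 4 group was lowest and overlapped none of the other groups, and the range of group means was 1.31-fold (adjusted p = 0.023). Aldh6a1 had 164, 142 and 128 CPM at ZT 0 and 142, 134 and 133 CPM at ZT 4. It had 194, 179 and 160.4 CPM at ZT 12, and 151, 141 and 140.1 CPM at ZT 16, so that only 1 ZT 0 library reached into the range of ZT 12 (1.30-fold range of means, adjusted p = 0.041). Dld had 225, 173 and 219 CPM at ZT 0 and 179, 179 and 177 CPM at ZT 4. It had 172, 171 and 177 CPM at ZT 12, and 196, 201 and 188 CPM at ZT 16 (1.19-fold range of means, adjusted p = 0.048). Its ZT 0 libraries ranged widely and overlapped those of every other time. Of 19 alternative fits, Dld passed in 4 and Aldh6a1 in 10, so a daily change of Dld is weakly based.

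The other 24 genes did not pass, with group means that differed by 1.02-fold (Bckdk) to 1.94-fold (Bcat1). Adipocyte genes summed to 456 to 2380 CPM at ZT 12, against 230.1 to 662 CPM at ZT 0. With the mean log2 CPM of the adipocyte genes as a covariate 3 genes passed, Glul, Prodh and Dbt. Without ZT 4 replicate 2, ZT 4 replicate 3 or ZT 12 replicate 2, in turn, 3 genes passed. For these fits, as for later ones with a covariate or without a library, the share of all genes that passed is not given. Endothelial genes summed to 127.7 to 170.8 CPM at ZT 12, below all libraries at ZT 0 (198.6 to 244.1), ZT 4 (188 to 232.3) and ZT 16 (171 to 189.4). Fibre genes summed to 151800 to 168900 CPM at ZT 12, against 132100 to 150200 CPM at ZT 0. The part of these lists in the result was not tested.

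Set against ZT 4, 3 genes rose at ZT 16 (10% of the list, with 3.49% of all genes raised and 3.67% lowered, 7.16% in either direction). Glul had a log2 fold change of 1.85 (SE 0.21, adjusted p = 2.9e-05), Prodh 1.29 (SE 0.20, adjusted p = 0.00061) and Dbt 0.39 (SE 0.09, adjusted p = 0.012), and for each the ZT 16 libraries all exceeded the ZT 4 libraries. Dbt did not pass without ZT 4 replicate 2 or ZT 16 replicate 1. Neutrophil genes summed to 0.0325 to 0.160 CPM at ZT 16, against 0.163 to 0.581 CPM at ZT 4, and their part in the result was not tested. The partners of Dbt in the complex, Bckdha, Bckdhb and Dld, had log2 fold changes of 0.10, 0.11 and 0.13, none past the threshold. The 27 genes that did not pass had log2 fold changes between -0.01 and 0.35. The median over the 30 genes was 0.11, with 29 of 30 above 0, against a median of 0.00 and 50.9% above 0 over all genes tested. The exception was Hsd17b10, a dehydrogenase of isoleucine breakdown, at -0.01.

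**Figure D2:**
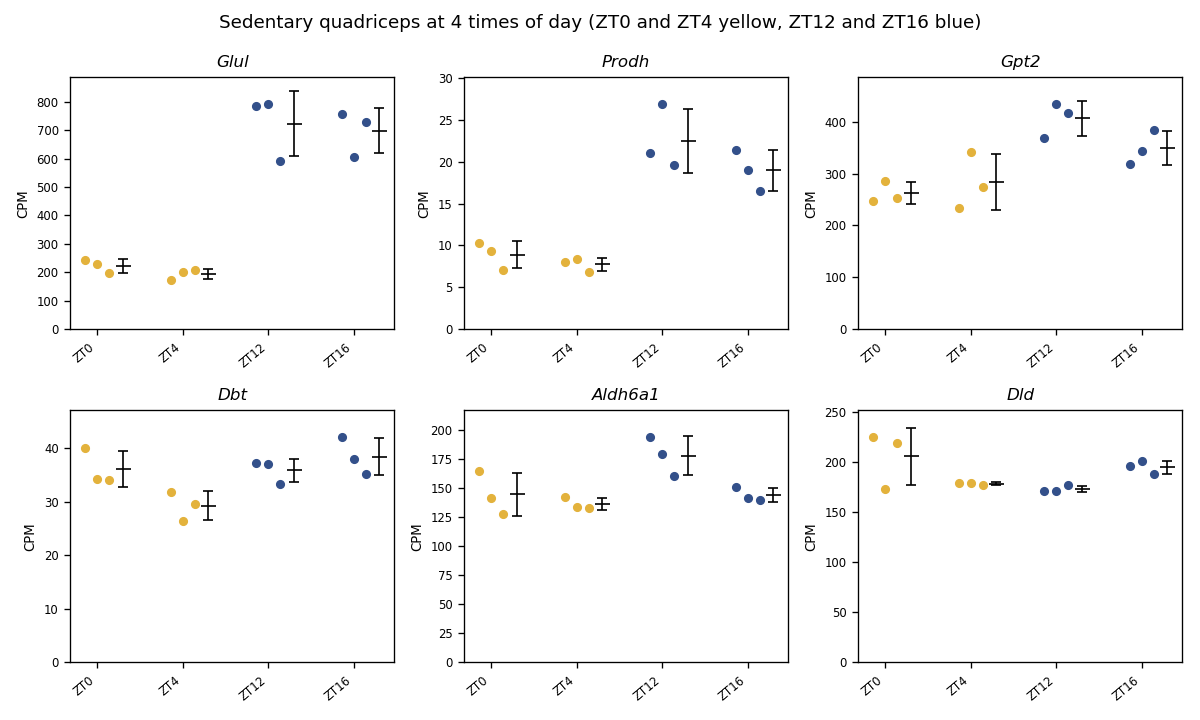
CPM of the 6 genes that passed the test over time in sedentary quadriceps, by ZT (h), with 1 point per library and the mean ± SD (n = 3) beside them. Glul and Prodh are low at ZT 0 and ZT 4 and high at ZT 12 and ZT 16, without overlap, whereas the libraries of Dld at ZT 0 lie between 173 and 225 CPM.

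The treadmill comparisons ask how the genes respond to 1 exhaustive run, and whether the response depends on when the run began. Glul and Gpt2 were higher and Ppm1k lower at +3h after both runs, and 4 of the 30 genes passed at +0h after the ZT 0 run and at +3h after either run. None passed at +0h after the ZT 12 run. The comparisons made at +3h use the sedentary group nearest in clock time.

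Right after the run at ZT 0, Glul had 438, 308 and 446 CPM, against 244, 229.8 and 196 CPM in sedentary quadriceps at ZT 0. The groups did not overlap, and the log2 fold change was 0.83 (SE 0.21, adjusted p = 0.020). Gpt2, which makes alanine from pyruvate and glutamate, had 414, 404 and 340.5 CPM after the run, against 247, 287 and 253 CPM in sedentary muscle. It was higher in all 3 libraries, by 0.56 on the log2 scale (SE 0.15, adjusted p = 0.029). Ppm1k, the phosphatase that switches the BCKDH complex on, fell to 11.03, 13.2 and 10.7 CPM after the run, against 19.8, 13.4 and 15.2 CPM in sedentary muscle. All 3 libraries were lower (log2 fold change -0.46, SE 0.13, adjusted p = 0.039), 1 of them by a small margin. Bcat1 had 0.747, 0.541 and 0.209 CPM after the run, from 50, 26 and 6 counts, against 0.115, 0.205 and 0.247 CPM in sedentary muscle, from 6, 16 and 12 counts. The groups overlapped (log2 fold change 1.47, SE 0.44, adjusted p = 0.048).

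These 4 genes, 3 raised and 1 lowered, were 13.3% of the list, against 6.82% of all genes tested, 4.29% raised and 2.53% lowered. The other 26 had log2 fold changes between -0.37 (Got1) and 0.20 (Gpt). Bcat2, the partner of Bcat1, had 0.03 (SE 0.10) and Bckdk, the partner of Ppm1k, -0.10 (SE 0.06). The median over the list was -0.05, against 0.00 over all genes. Adipocyte genes summed to 299 to 1814 CPM after this run, against 230.1 to 662 CPM in sedentary muscle at ZT 0. With their level as a covariate none of the 4 passed: Glul had a log2 fold change of 0.50 (adjusted p = 0.13), Gpt2 0.55 (adjusted p = 0.077), Ppm1k -0.31 (adjusted p = 0.22) and Bcat1 1.61 (adjusted p = 0.072). Macrophage genes summed to 114.3 to 135 CPM after the run, against 85.2 to 96.1 CPM in sedentary muscle, and neutrophil genes to 0.957 to 1.14, against 0.329 to 0.358 CPM. Endothelial genes summed to 179.5 to 185 CPM after the run, against 199 to 244 CPM in sedentary muscle, and Schwann cell genes to 38.8 to 50.4, against 52.9 to 103 CPM. The part of these 4 cell types in the result was not tested. No gene passed without treadmill replicate 1, sedentary ZT 0 replicate 1 or sedentary ZT 0 replicate 3, and 2 passed without treadmill replicate 2 or 3. These counts have no share of all genes beside them.

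Right after the run at ZT 12 no gene of the list passed edgeR's test, where 4.6% of all genes did, and DESeq2 also called 0. At an unadjusted p under 0.05, edgeR counted 4 of the 30 and 2545 of all 15097 genes. Glul had 1516, 789.9 and 782 CPM, against 786, 792 and 591 CPM in sedentary quadriceps at ZT 12 (log2 fold change 0.51, SE 0.21, adjusted p = 0.20). Its first library stood far above the others. Gpt2 had 614, 517 and 421 CPM after the run, against 369, 434 and 416 CPM in sedentary muscle (log2 fold change 0.35, SE 0.15, adjusted p = 0.23). The remaining genes lay between -0.19 (Ppm1k and Hibch) and 0.52 (Bcat1). The smallest adjusted p of the list was 0.20. Adipocyte genes summed to 235 to 792 CPM after this run, against 456 to 2380 CPM in sedentary muscle at ZT 12. With them as a covariate Glul passed, at 0.73 (edgeR's adjusted p = 0.014). Fibre genes summed to 188000 to 198200 CPM after this run, against 151800 to 168900 CPM in sedentary muscle. Erythroid genes summed to 223.9 to 327.8 CPM, against 187.6 to 217.8 CPM. The part of the fibre and erythroid lists in the result was not tested.

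Taking the difference between the +0h responses, ZT 12 minus ZT 0, no gene of the list passed edgeR's test, and 0% of all genes did. DESeq2 called 0 of the list and 18 of all genes, and at an unadjusted p under 0.05 edgeR counted 3 of the list and 1912 of all genes. The difference was -0.32 for Glul (95% interval -0.89 to 0.25) and -0.21 for Gpt2 (95% interval -0.62 to 0.20). For Ppm1k it was 0.27 (95% interval -0.10 to 0.64). The intervals include both 0 and differences as large as the responses themselves. The largest positive differences were those of the aspartate aminotransferases, 0.54 for Got1 (SE 0.24, adjusted p = 0.36) and 0.50 for Got2 (SE 0.21, adjusted p = 0.31).

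Later, at +3h after the run at ZT 0, Glul had 543, 436 and 455 CPM, against 173, 202 and 206 CPM in sedentary quadriceps at ZT 4. The lowest library after the run had more than any sedentary library, and the log2 fold change was 1.30 (SE 0.21, adjusted p = 0.00042). Ppm1k fell to 7.73, 7.34 and 8.10 CPM after the run, against 15.45, 12.9 and 13.8 CPM in sedentary muscle (log2 fold change -0.86, SE 0.13, adjusted p = 0.00023). Again no libraries overlapped. Gpt2 had 316, 450.1 and 453 CPM after the run, against 234, 342 and 275 CPM in sedentary muscle (log2 fold change 0.52, SE 0.15, adjusted p = 0.025). Here 1 library after the run lay below the highest sedentary one. Bcat1 had 1.74, 0.715 and 0.725 CPM after the run, from 74, 44 and 34 counts, against 0.282, 0.329 and 0.344 CPM in sedentary muscle, from 23, 17 and 19 counts. It was higher in every library, by 1.72 on the log2 scale (SE 0.39, adjusted p = 0.0058).

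The 4 genes were again 13.3% of the list, 3 raised and 1 lowered, close to the 13.6% of all genes that passed (6.96% raised and 6.63% lowered). The 26 others lay between -0.20 (Gpt) and 0.25 (Bckdhb). Bcat2 had -0.04 (SE 0.10), Bckdk -0.04 (SE 0.06) and Gpt, the cytosolic partner of Gpt2, -0.20 (SE 0.20). The median was -0.02, against 0.00 over all genes. Glul, Ppm1k and Bcat1 passed under all 14 alternatives tried, whereas Gpt2 did not pass without treadmill replicate 2 or 3, without sedentary ZT 4 replicate 1 or 3, or when only the compared groups were fitted.

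At +3h after the run at ZT 12, Gpt2 had 581, 567 and 533 CPM, against 319, 343 and 384 CPM in sedentary quadriceps at ZT 16. All 3 libraries were higher, by 0.68 on the log2 scale (SE 0.15, adjusted p = 0.0032). Glul had 1122, 1280 and 1276 CPM after the run, against 757, 607 and 729 CPM in sedentary muscle (log2 fold change 0.81, SE 0.21, adjusted p = 0.0099). Its libraries after the run exceeded every other quadriceps library except 1 at +0h after the same run. Ppm1k fell to 12, 9.80 and 9.60 CPM after the run, against 19.1, 19.4 and 15.1 CPM in sedentary muscle (log2 fold change -0.77, SE 0.13, adjusted p = 0.00036). Dbt fell to 33.3, 27.3 and 30.9 CPM after the run, against 42.1, 37.9 and 35.3 CPM in sedentary muscle (log2 fold change -0.33, SE 0.09, adjusted p = 0.015). In neither did the groups overlap. The sedentary ZT 16 libraries are the same that exceeded those of ZT 4 for Dbt above.

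These 2 raised and 2 lowered genes were 13.3% of the list, against 17.2% of all genes, 8.7% raised and 8.53% lowered. The partners of Dbt had log2 fold changes of 0.11 (Bckdha, SE 0.11), 0.28 (Bckdhb, SE 0.10, adjusted p = 0.069) and 0.00 (Dld, SE 0.07). Bckdk had 0.10 (SE 0.06), and Bcat1 0.87 (SE 0.39, adjusted p = 0.14), from 30, 41 and 32 counts after the run, against 31, 32 and 14 counts in sedentary muscle. The 26 genes that did not pass lay between -0.17 (Mccc2) and 0.87 (Bcat1). The median was 0.10, against 0.00 over all genes. Glul did not pass without sedentary ZT 16 replicate 2, and Dbt did not pass without treadmill replicate 2, without sedentary ZT 16 replicate 1, or against sedentary muscle at ZT 12. With sedentary muscle at the session's start as control, it was instead lowered at +3h after the ZT 0 run (log2 fold change -0.48 against sedentary ZT 0, adjusted p = 0.0018), so after which run Dbt passed depended on the control. Endothelial genes summed to 197 to 217 CPM at +3h after the ZT 12 run, against 171 to 189 CPM in sedentary muscle at ZT 16, and neutrophil genes to 0.299 to 3.04, against 0.0325 to 0.160 CPM. Fibre genes summed to 168600 to 192000 CPM after this run, against 137800 to 159600 CPM in sedentary muscle. The part of these lists in the result was not tested.

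The opposing regulators of BCKDH can be set side by side in each library as a ratio of CPM per kilobase. Bckdk over Ppm1k was 34.8 ± 0.347 at +3h after the ZT 0 run, against 19.7 ± 0.632 in sedentary muscle at ZT 4 (SD, n = 3 each). At +3h after the ZT 12 run it was 28.7 ± 3.09, against 15.7 ± 2.06 in sedentary muscle at ZT 16. In both comparisons the lowest ratio after the run, 34.5 or 25.2, exceeded the highest sedentary one, 20.2 or 18.1. The ratio was not tested separately, since it rests on the fall of Ppm1k described above. In gastrocnemius its group means lay between 14.39 and 15.49.

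The responses at +3h after the 2 runs did not differ past the threshold for any gene of the list (edgeR's quasi-likelihood test), where 1.59% of all genes differed. DESeq2 also called 0, and at an unadjusted p under 0.05 edgeR counted 0 of the 30 and 1965 of all 15097 genes. The difference, ZT 12 minus ZT 0, was -0.49 for Glul (95% interval -1.06 to 0.08), 0.17 for Gpt2 (-0.25 to 0.58) and 0.09 for Ppm1k (-0.28 to 0.46). For Bcat1 it was -0.85 (-1.94 to 0.24). A p above the threshold does not show equal responses, and the interval of Glul reaches a difference of more than 1 on the log2 scale.

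**Figure D3:**
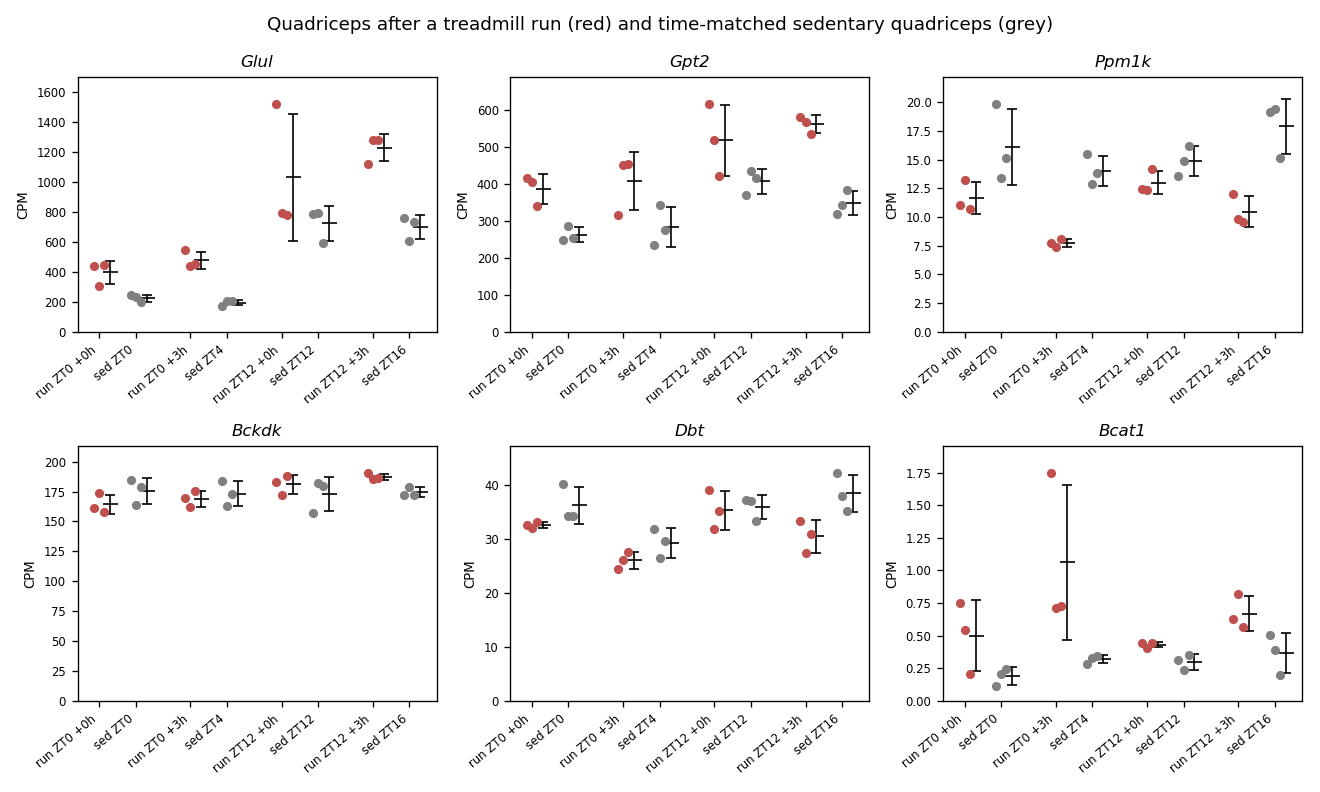
CPM in quadriceps after a treadmill run (red) and in the sedentary group nearest in time (grey), for Glul, Gpt2, Ppm1k, Bckdk, Dbt and Bcat1, with 1 point per library and the mean ± SD (n = 3) beside them. Ppm1k is lower at +3h after both runs than in its sedentary group, while Bckdk ranges little, and Glul is higher at +3h after both runs.

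Wheel schedule was compared in gastrocnemius at a fixed time. At ZT 4, Glul, the BCKDH subunits Bckdhb and Dld, Aldh6a1 and glutamate dehydrogenase (Glud1), which releases ammonia from glutamate, were higher with day access than with night access. These 5 raised genes and 0 lowered ones were 16.7% of the list, against 13.1% of all genes, 6.36% raised and 6.78% lowered.

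Glul had 262, 214, 295 and 345 CPM with day access, against 129.5, 143, 142 and 125 CPM with night access. Every day library exceeded every night library, and the log2 fold change was 1.05 (SE 0.18, adjusted p = 0.0030). Bckdhb had 38.4, 39.0, 40.2 and 37.3 CPM with day access, against 30.6, 30.7, 33.8 and 28.2 CPM with night access (log2 fold change 0.33, SE 0.08, adjusted p = 0.013), also without overlap. Glud1 had 113, 115, 121 and 115 CPM with day access, against 104, 105, 108 and 105 CPM with night access, a small but separated difference (log2 fold change 0.14, SE 0.04, adjusted p = 0.032). Aldh6a1 had 138, 139, 149 and 139 CPM with day access, against 135, 128, 132 and 114 CPM with night access (log2 fold change 0.15, SE 0.05, adjusted p = 0.038). Dld had 190.1, 208, 225 and 209 CPM with day access, against 180.3, 189, 199 and 184 CPM with night access, and these groups overlapped (log2 fold change 0.15, SE 0.05, adjusted p = 0.047).

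The partners of Bckdhb had smaller differences, 0.07 for Bckdha (SE 0.05) and 0.09 for Dbt (SE 0.09), and neither passed. The 25 genes that did not pass lay between -0.03 (Pcca) and 0.90 (Bcat1, SE 0.33, adjusted p = 0.084, from 14 to 18 counts with day access, against 5 to 10 with night access). Gpt2 had 0.04 (SE 0.07) and Prodh 0.11 (SE 0.15). The median over the list was 0.08, with 27 of 30 above 0, against -0.01 and 48.3% above 0 over all genes. Endothelial genes summed to 152 to 175 CPM with day access, against 195 to 209 CPM with night access, and macrophage genes to 62.8 to 73.7, against 79.5 to 97.2 CPM. The groups did not overlap in either, and their part in the result was not tested. Night ZT 4 replicate 4 held the lowest level of its group for 19 of the 30 genes, Glul, Bckdhb and Aldh6a1 among them. At ZT 16, day replicate 4 was the lowest of its group for 21 of the 30 and night replicate 4 for 16. Without night ZT 4 replicate 4, 2 genes passed, and the median was 0.07 with 24 of 30 above 0. Glul and Bckdhb passed under all 15 alternatives. Only 2 genes passed without night ZT 4 replicate 2 or without day ZT 4 replicate 2, 3 or 4, in turn, and 3 without night ZT 4 replicate 1.

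At ZT 16, no gene of the list differed between schedules by edgeR's test, where 0.565% of all genes did; DESeq2 called 0 of the list and 374 of all genes. At an unadjusted p under 0.05 edgeR counted 1 of the list and 1942 of all 14523 genes. Glul had 716, 529, 401 and 398 CPM with day access, against 624, 528, 624 and 534 CPM with night access (log2 fold change -0.18, 95% interval -0.53 to 0.18). The day libraries ran from below the lowest night library to above the highest. The 30 log2 fold changes lay between -0.18 (Glul) and 0.10 (Glud1, SE 0.04, adjusted p = 0.30).

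Within night access, 8 genes were higher at ZT 16 than at ZT 4 and 0 were lower, 26.7% of the list, against 18.8% of all genes, 9.41% raised and 9.38% lowered. Glul had 624, 528, 624 and 534 CPM at ZT 16, against 129.5, 143, 142 and 125 CPM at ZT 4 (log2 fold change 2.10, SE 0.19, adjusted p = 8.1e-06), the largest difference of the list. Prodh had 18.7, 17.4, 25.0 and 20.6 CPM at ZT 16, against 8.69, 8.13, 8.53 and 8.91 CPM at ZT 4 (log2 fold change 1.25, SE 0.14, adjusted p = 2.9e-05). Gpt2 had 405, 391, 379.5 and 344 CPM at ZT 16, against 292, 283, 266 and 304 CPM at ZT 4 (log2 fold change 0.41, SE 0.07, adjusted p = 0.00063). In all 3 the groups were fully separated.

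Aldh6a1 had 147, 145, 142 and 140.5 CPM at ZT 16, against 135, 128, 132 and 114 CPM at ZT 4 (log2 fold change 0.17, SE 0.05, adjusted p = 0.012). Auh, the hydratase of leucine breakdown, had 35.8, 36.3, 39.1 and 34.9 CPM at ZT 16, against 32.2, 31.5, 34.3 and 31.2 CPM at ZT 4 (log2 fold change 0.18, SE 0.05, adjusted p = 0.014). Hibch, a hydrolase of valine breakdown, had 33.5, 34.7, 36.2 and 34.0 CPM at ZT 16, against 31.1, 29.0, 31.9 and 31.8 CPM at ZT 4 (log2 fold change 0.16, SE 0.05, adjusted p = 0.021). These differences were small, yet no libraries overlapped. Dbt had 36.0, 37.0, 33.5 and 29.2 CPM at ZT 16, against 28.3, 28.2, 29.4 and 22.3 CPM at ZT 4 (log2 fold change 0.33, SE 0.09, adjusted p = 0.021), with 1 ZT 16 library just below the highest at ZT 4. Bckdha rose by 0.16 (SE 0.05, adjusted p = 0.037).

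The 22 genes that did not pass lay between -0.07 (Pcca, a propionyl-CoA carboxylase subunit) and 0.72 (Bcat1). The median was 0.09, with 29 of 30 above 0, against 0.01 and 51.5% above 0 over all genes. Both this comparison and that of schedules at ZT 4 rest on the same night ZT 4 libraries. Without replicate 4 of that group, 6 genes passed and the median was 0.07 with 26 of 30 above 0. Endothelial genes summed to 144 to 183 CPM at ZT 16, against 195 to 209 CPM at ZT 4, macrophage genes to 61.1 to 68.9, against 79.5 to 97.2 CPM, and neutrophil genes to 0.153 to 0.386, against 0.802 to 0.883 CPM. None of these groups overlapped, and their part in the result was not tested. Slow-fibre genes summed to 1229 to 1867 CPM at ZT 16, against 643 to 1460 CPM at ZT 4. With the mean log2 CPM of the slow-fibre genes as a covariate 5 genes passed, all but Bckdha, Dbt and Hibch. Without ZT 16 replicate 3, 5 genes passed.

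Within day access, 4 genes were higher at ZT 16 and 0 were lower, 13.3% of the list, against 14.9% of all genes, 7.7% raised and 7.17% lowered. Prodh had 24.4, 17.0, 18.3 and 17.8 CPM at ZT 16, against 7.89, 7.64, 10.5 and 11.02 CPM at ZT 4 (log2 fold change 1.07, SE 0.14, adjusted p = 0.00016). Gpt2 had 419, 357, 351 and 341 CPM at ZT 16, against 298, 273, 275 and 331 CPM at ZT 4 (log2 fold change 0.32, SE 0.07, adjusted p = 0.0056). Glul had 716, 529, 401 and 398 CPM at ZT 16, against 262, 214, 295 and 345 CPM at ZT 4 (log2 fold change 0.88, SE 0.18, adjusted p = 0.0060). It did not pass when the day groups alone were fitted. Dbt had 39.1, 38.6, 34.4 and 31.3 CPM at ZT 16, against 26.1, 29.6, 30.2 and 28.6 CPM at ZT 4 (log2 fold change 0.32, SE 0.09, adjusted p = 0.027), and it did not pass without day ZT 4 replicate 1 or 4 or day ZT 16 replicate 1 or 2. None of the 4 had overlapping groups. The other 26 genes lay between -0.18 (Bckdhb) and 0.12 (Gpt and Mccc2), and the median over the list was 0.01, the same as over all genes.

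The difference between schedules in the step between ZT 4 and ZT 16, day minus night, passed for Glul alone (log2 -1.22, 95% interval -1.73 to -0.72, SE 0.26, adjusted p = 0.0098). It was 1 lowered gene, 3.33% of the list, against 9.74% of all genes, 4.68% raised and 5.07% lowered. Glul rose 0.88 on the log2 scale under day access and 2.10 under night access, and it passed under all 23 alternatives tried. For Prodh the difference was -0.18 (95% interval -0.57 to 0.22), for Gpt2 -0.09 (-0.29 to 0.11) and for Dbt -0.01 (-0.27 to 0.25). Bckdhb had -0.37 (SE 0.12, adjusted p = 0.052), and it passed without night ZT 4 replicate 3, night ZT 16 replicate 4 or day ZT 16 replicate 1, which brought the count to 2. The median over the list was -0.09, against 0.01 over all genes.

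**Figure D4:**
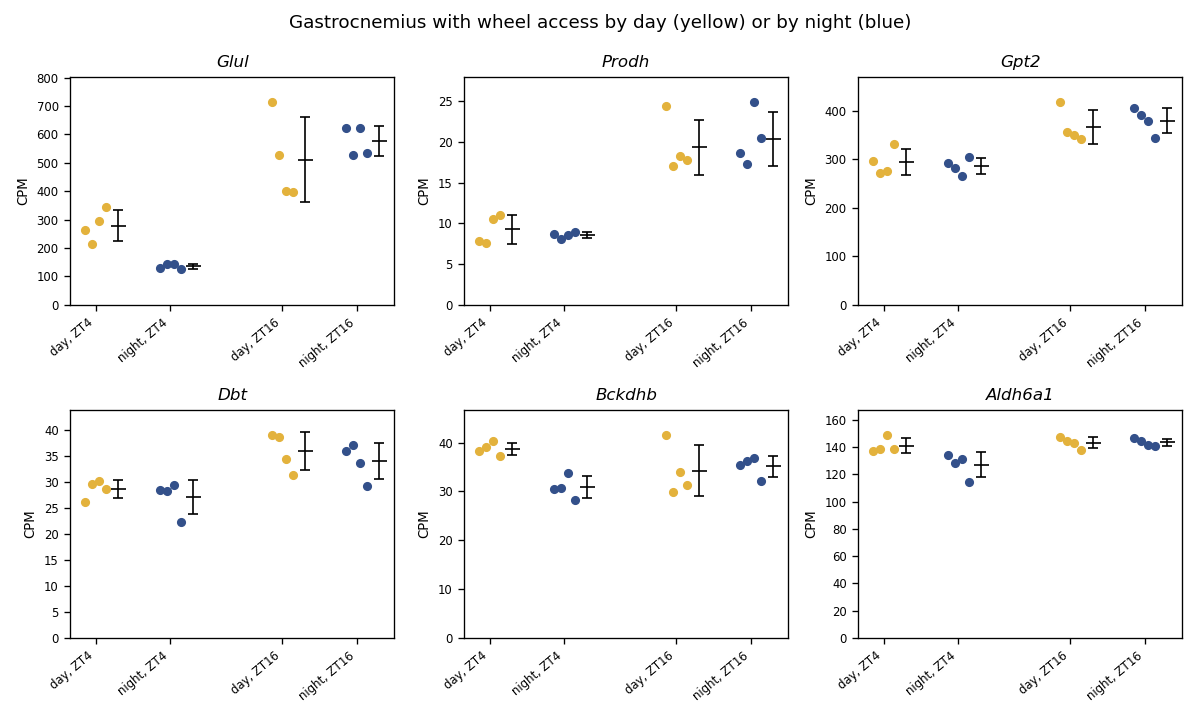
CPM in gastrocnemius with day (yellow) or night (blue) wheel access at ZT 4 and ZT 16, for Glul, Prodh, Gpt2, Dbt, Bckdhb and Aldh6a1, with 1 point per library and the mean ± SD (n = 4) beside them. Glul at ZT 4 lies between 214 and 345 CPM with day access and between 125 and 143 CPM with night access, and Prodh is higher at ZT 16 under both schedules.

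Of the 30 genes, 17 passed in no comparison. The share of all genes that passed in none was not counted, so this number has no background beside it. Of the leucine branch, isovaleryl-CoA dehydrogenase (Ivd) and the methylcrotonyl-CoA carboxylase subunits Mccc1 and Mccc2 passed in none. Nor did the acyl-CoA dehydrogenases Acad8 (valine) and Acadsb (isoleucine), the dehydrogenases Hibadh and Hsd17b10, or the propionate enzymes Pcca, Pccb and Mcee. Bcat2, Bckdk, Got1, Got2, Gpt, Oat and Aldh4a1, which follows Prodh in proline breakdown, also passed in none. In night-access gastrocnemius, for example, Aldh4a1 averaged 153 ± 5.15 CPM at ZT 16 and 151 ± 9.24 CPM at ZT 4 (SD, n = 4 each), where Prodh differed in every library. Got1 averaged 435 ± 14.9 CPM at +3h after the ZT 12 run, against 380.4 ± 71.8 CPM in sedentary muscle at ZT 16 (SD, n = 3 each). Against sedentary muscle at ZT 12, the session's start, Got1 did pass at +3h after that run (log2 fold change 0.66, adjusted p = 0.0095), as did Got2 (0.43, adjusted p = 0.044) and Mccc2 (-0.34, adjusted p = 0.017). Oat passed with DESeq2 for day relative to night access at ZT 4 (0.14, adjusted p = 0.049). In all, 9 of the 17 passed in some comparison under some alternative.

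**Figure D5:**
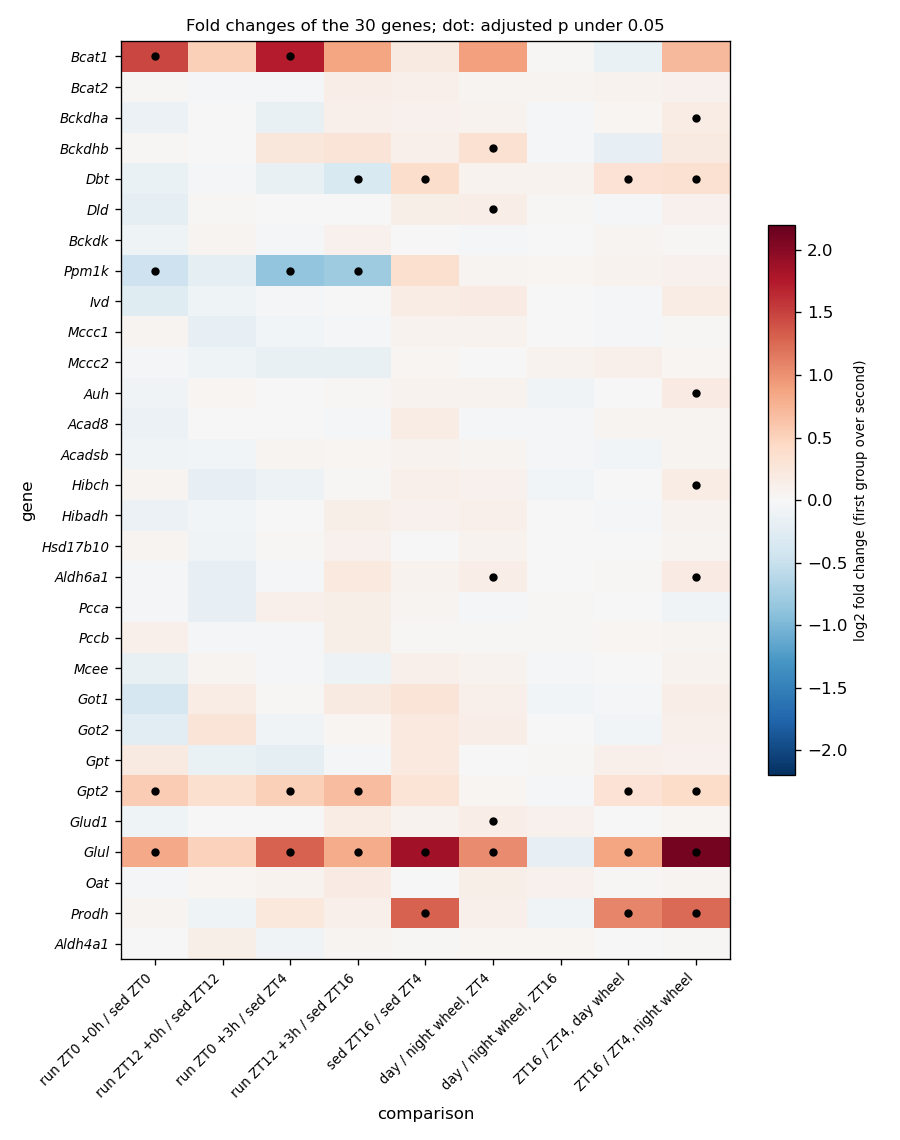
Log2 fold change (colour) of each of the 30 genes in 9 comparisons, always the first group named over the second, with a dot where the adjusted p was under 0.05. Glul carries 7 dots and Gpt2 5, all in red, Ppm1k carries 3 in blue after runs, and most other rows stay near white.

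Other genes of amino acid handling were counted in lists of their own. Among 18 measured transporters and carriers, 7 were raised and 0 lowered at +3h after the ZT 12 run, where 8.7% of all genes were raised and 8.53% lowered. The smallest p-values were those of Slc7a5, the light chain of the leucine transporter LAT1 (log2 fold change 3.00, SE 0.30), Slc43a1, another branched-chain amino acid transporter (1.02, SE 0.16), and the mitochondrial glutamate carrier Slc25a22 (0.99, SE 0.19). At +3h after the ZT 0 run, where 6.96% of all genes were raised and 6.63% lowered, 3 were raised and 1 lowered: the glutamine transporter Slc38a2 had 1.97 (SE 0.25), Slc43a1 -0.89 (SE 0.16) and Slc7a8 1.03 (SE 0.18). Against the sedentary group nearest in clock time, the responses of Slc43a1 and Slc25a22 differed between runs, where 1.59% of all genes differed. The differences, ZT 12 minus ZT 0, were 1.92 (SE 0.22, adjusted p = 0.00020) and 1.24 (SE 0.27, adjusted p = 0.026). Slc43a1 itself was lower at ZT 16 than at ZT 4 in sedentary muscle, with a log2 fold change of -1.52 (SE 0.16), a comparison that shares its sedentary libraries with those after the runs. Sedentary muscle averaged 13.92 CPM of Slc43a1 at ZT 0 and 24.38 CPM at ZT 12, the sessions' starts. At +3h Slc43a1 averaged 13.52 CPM after the ZT 0 run and 17.86 CPM after the ZT 12 run. For Slc25a22 these sedentary means were 12.99 and 23.06 CPM, and those at +3h were 17.8 and 27.77 CPM. With these controls Slc43a1 was not higher after the ZT 12 run, so its direction there depended on the control. The difference between runs was not tested with them. At +0h, 2 were raised after the ZT 0 run (Slc3a2 at 0.51 and Slc7a1 at 0.89) and 3 after the ZT 12 run (Slc38a2 at 1.10, Slc7a1 at 0.75 and Slc7a8 at 0.63), with 0 lowered after either. Of all genes, 6.82% passed after the ZT 0 run and 4.6% after the ZT 12 run.

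The transporters also varied with time of day and schedule. Of the 18, 8 passed the test over the 4 sedentary times, where 17.1% of all genes passed, led by Slc43a1, Slc7a2 and Slc7a8. At ZT 16 relative to ZT 4, 3 were raised and 3 lowered in sedentary quadriceps (7.16% of all genes passed), with Slc7a8 at 1.15 and Slc7a2 at 1.21. Under night access 5 were raised and 3 lowered (18.8% of all genes passed), with Slc43a1 at -0.98, Slc7a8 at 1.17 and Slc1a5 at 0.56. Under day access 4 were raised and 4 lowered (14.9% of all genes passed), with Slc43a1 at -1.31, Slc7a8 at 1.01 and Slc1a5 at 0.47. Day relative to night access at ZT 4 raised 3 (Slc43a2 at 0.56, Slc38a2 at 0.77 and Slc38a1 at 1.22) and lowered 1 (Slc25a22 at -0.81), where 13.1% of all genes passed. The difference of steps passed for 3, and for 9.74% of all genes, with 1 raised and 2 lowered: Slc43a2 at -0.87, Slc38a4 at 0.73 and Slc38a1 at -1.50.

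Of 9 factors known to act on genes of this kind, 6 were raised and 0 lowered at +3h after each run, where 6.96% (ZT 0 run) and 8.7% (ZT 12 run) of all genes were raised. Ppargc1a, a coactivator of mitochondrial genes, had a log2 fold change of 3.37 (SE 0.12) after the ZT 0 run and 3.43 (SE 0.12) after the ZT 12 run. After the ZT 0 run Foxo1 (1.34) and Ppard (0.43) followed, and after the ZT 12 run Klf15 (1.31, SE 0.21) and Ppard (0.53). Klf15 is known in mice to act on Bcat2 and alanine aminotransferase genes. In the same comparison Bcat2 had 0.15 (SE 0.10), Gpt -0.04 (SE 0.20) and Gpt2, given above, 0.68. Day relative to night access at ZT 4 raised 5 of the 9, where 6.36% of all genes were raised, among them Ppargc1a (2.32), Klf15 (0.87) and Ppara (1.31). At ZT 16 relative to ZT 4, 5 were raised under night access, where 9.41% of all genes were (Ppara at 1.48, Foxo3 at 0.64 and Foxo1 at 0.87 first), and 2 were lowered under day access, where 7.17% of all genes were (Ppargc1a at -2.09 and Klf15 at -0.78). The difference of steps was below 0 for the 4 that passed, where 5.07% of all genes were lowered, with Ppargc1a at -2.79, Klf15 at -1.27 and Ppara at -1.90. In sedentary quadriceps 3 were raised at ZT 16 (Ppara at 1.39, Nr3c1 at 0.29 and Ppard at 0.36), and 5 passed the test over time, where 3.49% of all genes were raised at ZT 16 and 17.1% passed over time.

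The remaining lists had fewer calls. Of 12 further genes of branched-chain and propionate breakdown, 5 were raised and 0 lowered at ZT 16 relative to ZT 4 under night access, where 9.41% of all genes were raised, with Mmaa at 0.32 and Acaa2 at 0.31 among them. For Mmaa the difference of steps between schedules passed (-0.31, edgeR's adjusted p = 0.017), where 5.07% of all genes were lowered. At +3h after the ZT 12 run 1 was raised, Mlycd (0.44), which acts on malonyl-CoA, where 8.7% of all genes were raised. Of 6 purine nucleotide cycle genes, through which muscle releases ammonia, 3 were raised and 1 lowered at +3h after the ZT 12 run, and 2 were raised and 1 lowered at +3h after the ZT 0 run; of all genes, 17.2% and 13.6% passed after these runs. Ampd3 had 0.98 after the ZT 12 run and 0.80 after the ZT 0 run, and Ampd2 had -0.59 and -0.64. Of 6 genes of glutamine and asparagine, the glutaminase Gls2 alone passed after a run, at +0h after the ZT 12 run (1.95, SE 0.39, edgeR's adjusted p = 0.0040). Its level was low, on average 0.334 CPM after that run, against 0.0852 CPM in sedentary muscle at ZT 12. In that comparison 4.6% of all genes passed. Of 21 genes of other amino acid breakdown, 3 were lowered and 0 raised at +3h after the ZT 0 run, where 6.63% of all genes were lowered: Dhtkd1 (-0.73), Aass (-1.60) and Cth (-0.95). Aass was low as well, on average 0.0680 CPM after that run, against 0.206 CPM in sedentary muscle at ZT 4. Amt, of the glycine cleavage system, was the 1 gene lowered at +0h after the ZT 0 run (-0.62) and at +3h after the ZT 12 run (-0.53). Of all genes, 2.53% and 8.53% were lowered in these comparisons.

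In gastrocnemius 19 genes of other amino acid breakdown were measured. At ZT 16 relative to ZT 4, 4 were raised and 1 lowered under night access (9.41% and 9.38% of all genes). Mat2a, which makes S-adenosylmethionine, had 0.69, Shmt1 0.49 and Kyat1 0.19. Under day access Mat2a alone passed (0.63), where 7.7% of all genes were raised. Day relative to night access at ZT 4 raised Cth (0.99) and, among the purine nucleotide cycle genes, lowered Ampd2 (-0.52). Of all genes, 6.36% were raised and 6.78% lowered there.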

How the data were processed

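RNA of 24 quadriceps and 16 gastrocnemius libraries (TruSeq Stranded mRNA) was analysed from the table of estimated counts that the authors deposited, with a column for each of 2 lanes. The submitters' processing notes name kallisto (0.46.2), bcl2fastq (2.20.0.422), DESeq2 (1.26.0) and the builds GRCm38.p6 and mm10. The step between transcript estimates and gene values is not given in sources used here. Kallisto divides reads shared by similar transcripts by estimation. Here lanes were summed and rounded to whole counts. Of 23621 Entrez IDs, 23614 matched a symbol, and 7, with 0.00139% of counts, did not. Each muscle was fitted once with edgeR 4.0.16 in R 4.3.3 (TMM scaling, filterByExpr with its minimum count of 10, robust quasi-likelihood test, 1 coefficient per group). Benjamini-Hochberg adjustment covered all genes tested (15097 in quadriceps, 14523 in gastrocnemius), and the threshold was 0.05. CPM are counts per 1000000 of the TMM-scaled library size. Levels per kilobase use merged exons of GENCODE M21. Intervals are 1.96 SE each way. Depth, given per muscle in the results, sets counting error.

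Each of the 30 genes past the threshold is named with its fold change or, over 4 times, the range of group means. The 6 with the smallest p per comparison, with ties at the printed p kept, have each library's value. Of the wider lists, up to 3 genes with the smallest p among those that passed are named, and a few more. The 30 genes and all lists were chosen with earlier results of these data known. Alternatives were RLE factors, DESeq2 1.42.0, no filter, a replicate block, slow-fibre or adipocyte level as covariate, fewer groups, the sedentary group at the session's start, and leaving out each library. The level used as a covariate was the mean log2 CPM of the listed genes, centred over the libraries. The steps were tested on simulated data. No 2 libraries of a group agreed within sampling noise. 1 gene of the wider lists is not reported here by name.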

Additional observations from a re-analysis of the deposited data

Results flagged for a closer look

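In the gastrocnemius, where groups of 4 allow a test for a single library far from the rest (Dixon's test at 95%), 120 combinations of gene and group were tested, and chance flags about 1 in 20. All flags are listed here, and their number is near that expected by chance. Night-access ZT 4 replicate 4 was low for 3 genes: Dbt had 22.26 CPM there, against 28.15 to 29.35 in the other libraries of the group, Ivd 106.7, against 134.9 to 139.6, and Acad8 36.73, against 37.79 to 37.94. Night-access ZT 16 replicate 4 was low for Acadsb, with 87.21 CPM, against 98.4 to 99.77. Day-access ZT 4 replicate 3 was high for Aldh6a1, with 149.2 CPM, against 137.5 to 138.8. Day-access ZT 16 replicate 3 was high for Hibch, with 34.93 CPM, against 32.14 to 32.59.

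Glul differed between wheel schedules in its step between ZT 4 and ZT 16, by -1.2241 on the log2 scale (day minus night access, edgeR's adjusted p = 0.0098).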

How the results depend on the processing

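All results were recomputed under each alternative, 1 choice at a time. Of 39 calls of a single gene in 1 comparison, none changed direction; 39 passed with RLE factors and with DESeq2, 37 with no filter, 34 with the slow-fibre and 30 with the adipocyte covariate, 32 with only the compared groups fitted, and 7 of 8 with sedentary muscle at the session's start as control. Same-numbered libraries did not deviate together on average (mean r = -0.0038 in quadriceps and 0.0097 in gastrocnemius, over all genes). In quadriceps, pairs of the same number had r from -0.47 to 0.36, and pairs of different numbers from -0.47 to 0.54. A mean near 0 does not show that the numbers mark no pairing, and the labels do not state one. With the replicate block 36 of 39 calls passed, all but Bcat1 at +0h after the ZT 0 run, Dld over sedentary times and Bckdha with time under night access. Ivd passed with the block for day relative to night access at ZT 4 (0.18) and with time under night access (0.16). Counts of genes past the threshold moved by over 1.5 times as follows, and the cause was not tested. The share of all genes that passed under these alternatives is not given beside them. At +0h after the ZT 0 run 0 passed with the adipocyte covariate and 2 with only the compared groups. At +0h after the ZT 12 run 1 passed with the adipocyte covariate. Over sedentary times 3 passed with the adipocyte covariate. Between ZT 16 and ZT 4 under night access 5 passed with the slow-fibre covariate. The difference of steps between schedules passed for 2 genes, Glul and Bckdhb, under RLE factors, DESeq2 and the replicate block. Leaving out 1 library at a time gave 0 to 5 genes at +0h and 3 to 4 at +3h after the ZT 0 run, 0 to 0 and 3 to 4 after the ZT 12 run, and 0 to 0 for both differences between runs. It gave 3 to 7 over sedentary times, 2 to 3 for sedentary ZT 16 against ZT 4, 2 to 5 and 0 to 0 for the schedules at ZT 4 and ZT 16, 5 to 8 and 3 to 4 for time under night and day access, and 1 to 2 for the difference of steps. Of the 30 genes, depth limits Bcat1 most, with as few as 5 counts in a library. Groups of 3 or 4 limit small changes: at log2 0.15 in gastrocnemius, calls of Dld, Aldh6a1 and Glud1 were lost when single libraries were left out.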
